A study of Mus musculus with 8 samples.

Results

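The transcripts described here are non-coding genes that host small nucleolar RNAs (snoRNAs), RNAs of the nucleolus that are cut out of host introns. They were measured in DC-restricted progenitors (CDPs) of mouse bone marrow (BM) under a high fat diet. Members were the rows of the gene count table whose Ensembl identifier carries one of 9 listed symbols in GENCODE vM21. A row was found for 8 of these, namely Gas5, Snhg1, Snhg3, Snhg5, Snhg6, Snhg8, Snhg12 and Zfas1, out of 16119 genes in the table, and all 8 passed the filter on low counts with 15837 genes in all. Snhg4 was not analysed here. RNA came from C57BL/6 mice with diet-induced obesity, fed 60 kcal% fat for 16 weeks (HFD), and from control mice on chow with 10 kcal% fat (CF), matched for age per the labels. The study's methods describe the mice of both diets as C57BL/6J males bought at an age of 16 weeks. No other allele or agent is named for either group. About 50000 cells without lineage markers, with intermediate c-Kit and low Sca-1 and with CD115 and Flt3, were sorted for each library, 4 per diet. Whether a library is 1 mouse or several pooled mice is not stated in the sources used here, so that p-values measure the spread between these samples. Values below are raw counts, or CPM, the counts relative to the library total after TMM scaling, and a call means an adjusted p below 0.05 for HFD against CF in edgeR's quasi-likelihood test.

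Non-coding snoRNA hosts are transcribed and spliced like mRNAs. The intron gives rise to the snoRNA, while the spliced host often has no conserved protein and is known to be degraded through nonsense-mediated decay (NMD) when it is translated. Many hosts start with a pyrimidine tract (TOP motif) that they share with ribosomal protein mRNAs, and Gas5 is known for its rise in cells whose growth is arrested. C/D box snoRNAs guide methylation of the ribose in rRNA, H/ACA box snoRNAs guide pseudouridylation, and a few, such as Snora73 (U17) and Snord22 (U22), act in the cleavage of pre-rRNA.

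The most counted snoRNA of each host is printed here, since the comparison of host and snoRNA turns on these RNAs. Sequences are of GENCODE vM21 transcripts on GRCm38, 5′ to 3′. Capitals mark the C box (ATGATGA or GTGATGA) and the D box (CTGA) of C/D box RNAs or the ACA near the end of H/ACA box RNAs. In Snord22 only the D box letters were found.
Snord80 (Gas5, chr1:161037604-161037680, plus strand): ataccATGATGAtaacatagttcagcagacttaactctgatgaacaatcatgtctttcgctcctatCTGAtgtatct
Snord22 (Snhg1, chr19:8725866-8725991, plus strand): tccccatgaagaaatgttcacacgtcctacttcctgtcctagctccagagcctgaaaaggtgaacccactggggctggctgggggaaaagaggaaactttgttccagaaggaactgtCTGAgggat
Snora73b (Snhg3, chr4:132352322-132352526, minus strand): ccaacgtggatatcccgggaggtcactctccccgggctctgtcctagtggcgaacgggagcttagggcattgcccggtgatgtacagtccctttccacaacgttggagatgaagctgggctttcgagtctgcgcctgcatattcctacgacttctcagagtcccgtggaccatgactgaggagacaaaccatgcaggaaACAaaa
Snord50b (Snhg5, chr9:88521797-88521868, minus strand): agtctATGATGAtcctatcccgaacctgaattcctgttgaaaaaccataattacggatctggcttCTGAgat
Snord87 (Snhg6, chr1:9942463-9942549, minus strand): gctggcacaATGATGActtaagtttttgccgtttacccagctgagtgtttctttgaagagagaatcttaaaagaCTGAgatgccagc
Snora24 (Snhg8, chr3:123507937-123508066, minus strand): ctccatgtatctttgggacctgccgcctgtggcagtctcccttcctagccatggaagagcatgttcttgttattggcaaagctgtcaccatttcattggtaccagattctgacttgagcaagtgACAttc
Snora16a (Snhg12, chr4:132309465-132309600, plus strand): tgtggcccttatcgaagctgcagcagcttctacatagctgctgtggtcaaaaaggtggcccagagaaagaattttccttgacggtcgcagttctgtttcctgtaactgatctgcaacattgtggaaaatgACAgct
Gm23201 (Zfas1, chr2:167064998-167065086, plus strand): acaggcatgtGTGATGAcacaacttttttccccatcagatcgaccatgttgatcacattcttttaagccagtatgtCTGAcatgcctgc
Of the 28 hosted snoRNAs tested, 16 carried both C and D box letters in these windows, 6 a D box without a C box, 5 the ACA without a D box, and 1 none of these. Snora73a and Snora73b have 96.6% identity (198 of 205 aligned bases) and Snord50a and Snord50b 98.6% (71 of 72), so the division of reads within each pair is uncertain.

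The hosts differ in how many snoRNAs they carry. Gas5 (chr1:161034422-161038539, plus strand) has 10 annotated snoRNA entries, Snhg1 (chr19:8723475-8726443, plus strand) 8, Snhg12 (chr4:132308623-132311024, plus strand) 5 and Zfas1 (chr2:167062934-167065862, plus strand) 3. Snhg3 (chr4:132348014-132353686, minus strand) and Snhg5 (chr9:88521050-88522929, minus strand) have 2 each, and Snhg6 (chr1:9941959-9944118, minus strand) and Snhg8 (chr3:123507552-123508404, minus strand) 1 each. Of these 32 entries, 30 had a row in the table and 28 were tested. The 2 without a row are second entries for Snord80 in Gas5 and Snora16a in Snhg12 at nearly the same positions, so that Gas5 holds 9 distinct snoRNAs and Snhg12 4. Some snoRNAs overlap annotated exons of their host. Transcripts with a retained intron make up 20 of 25 at Gas5, 14 of 18 at Snhg1 and 4 of 5 at Zfas1, and 0 at Snhg3, Snhg6 and Snhg12. Of the exon bases of a host, 20.9% lay in snoRNAs at Snhg1, 19.6% at Snhg12, 17.8% at Gas5, 16.1% at Snhg3, 15.2% at Snhg8, 9.29% at Zfas1, 8.32% at Snhg5 and 0% at Snhg6. A host count can therefore hold reads of its snoRNAs.

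The start sites were searched for the letters of a pyrimidine tract, a C followed by at least 4 pyrimidines (C or T) that begins within 10 bases of the annotated start, on the transcribed strand. In RefSeq's promoter table (GRCm38.p6), which held 7 of the members, such a tract was at 5 of their 8 starts, 1 start in each of 5 members, and at 30.7% of the 32817 starts in that table. Windows of 4 members are shown, from 15 bases before the start to the 25 bases from it, with the tract in capitals. No tract in these letters was found for Snhg1 and Zfas1, nor at one of the pair of Gas5 starts.
Gas5 (chr1:161035151-161035190, plus strand): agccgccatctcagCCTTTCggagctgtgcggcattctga
Snhg3 (chr4:132353662-132353701, minus strand): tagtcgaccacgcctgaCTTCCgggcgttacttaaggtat
Snhg12 (chr4:132308663-132308702, plus strand): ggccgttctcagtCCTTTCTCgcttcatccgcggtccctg
Snhg1 (chr19:8723472-8723511, plus strand): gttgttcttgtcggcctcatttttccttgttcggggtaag

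The libraries held 28203651 to 48409689 counts each. The 8 members took 0.0262% to 0.0433% of the counts in HFD libraries and 0.0531% to 0.0638% in CF libraries, and their snoRNAs 0.110% to 0.246% and 0.334% to 0.482%. All 14 markers of the gate and of DC progenitors were in the table, but library HFD 1 stood apart: its Flt3 level, which the sort selected on, was 88.8 CPM, against 227 to 378 CPM in the other 7 libraries. Its levels of Csf1r, which encodes CD115, and of Kit, also selected on, were 93.6 and 45.6 CPM. Both lay within the other libraries, at 79.4 to 133 and 34.2 to 53.6 CPM. Its 15 neutrophil markers summed to 20965 CPM, against 984 to 3661 in the other HFD and 2007 to 6727 in CF libraries, and its 13 erythroid markers to 990 CPM, against 142 to 230 and 130 to 225. The sums of monocyte, granulocyte progenitor, and mast cell and basophil markers were also highest in HFD 1, at 2629, 1329 and 176 CPM. The 12 B cell markers summed to 1334, 660, 728 and 516 CPM in HFD libraries 1 to 4 and to 355 to 604 CPM in CF. HFD 1 also had the lowest shares of member and snoRNA counts. Without HFD 1, the log2 fold change of Snhg3 was -1.07 (edgeR, adjusted p = 0.038) and the median of the hosted snoRNAs -1.13, with 28 of 28 lower. HFD 1 was not the only departure. Spib, a factor of plasmacytoid DCs, was 27.1 to 60.5 CPM in HFD and 12.3 to 23.2 CPM in CF (log2 fold change 1.40, SE 0.31, edgeR adjusted p = 0.11), and Ccr9, a receptor of the same cells, 5.13 to 16.2 and 2.02 to 4.80 CPM (1.56, SE 0.37, edgeR adjusted p = 0.14), each with HFD wholly above CF. Siglech overlapped (1.47, SE 0.40, edgeR adjusted p = 0.20), as did Tcf4 of the same list (0.040, SE 0.16, edgeR adjusted p = 0.98). Id2, a factor of conventional DCs, lay wholly lower in HFD (-0.45, SE 0.16, edgeR adjusted p = 0.42). Zbtb46 (-0.34, SE 0.15), Batf3 (-0.79, SE 0.59) and Clec9a (-0.33, SE 0.33) overlapped. None of the 14 was called. Of 11 heat shock genes tested, 6 were higher in HFD and 2 were called. The called genes, both lower in HFD, were the inducible chaperones Hspa1a (-3.04, SE 0.38, edgeR adjusted p = 0.035) and Hspa1b (-2.97, SE 0.40, edgeR adjusted p = 0.035). As these are near-identical genes, their reads may be divided uncertainly. The part of these cell and stress genes in the levels of Snhg3 and the snoRNAs was otherwise not tested. In bulk RNA, fewer cells of a type and less RNA per cell cannot be told apart.

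Per kilobase of exon, Snhg3 had the highest level, with a median of 198 CPM per kilobase over the 8 libraries (117 to 375), followed by Gas5 with 41.1 (20.7 to 77.9). The libraries of these 2 genes did not overlap, nor did those of Gas5 and Snhg1. Below them, Snhg1 (9.09, 5.52 to 10.8), Snhg8 (9.09, 7.60 to 14.1), Snhg12 (7.40, 2.35 to 41.3), Snhg5 (5.91, 5.11 to 7.27), Snhg6 (4.64, 4.30 to 5.13) and Zfas1 (4.12, 3.34 to 4.77) followed, and each overlapped its neighbour in that order. With the longest transcript as length, 6 of the 8 kept their rank, while Snhg12 went to the third and Snhg1 to the fifth.

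Snhg3, host of the U17 snoRNAs, was lower in HFD. Its level was 127, 116, 163 and 150 CPM in HFD libraries 1 to 4 and 369, 286, 314 and 227 CPM in CF libraries 1 to 4. The groups did not overlap. The HFD mean of 139 ± 21.6 CPM (SD, n = 4) stood against a CF mean of 299 ± 59.2 CPM (SD, n = 4), a 2.16-fold lower level (log2 fold change -1.11, SE 0.18, edgeR adjusted p = 0.043). It was the only member called, 1 of 8, where 0.423% of all genes were called lower and 0.423% in either direction. The call was absent when any of HFD 2, 3 or 4 or CF 1, 2 or 3 was left out, and the fits that lost it called 0 or 1 of all genes lower. Over all libraries left out in turn, the log2 fold change was -1.22 to -0.99. The call was also absent in a linear model for each gene (-1.09, adjusted p = 0.22). It was absent too with the replicate number as a block (-1.10, edgeR adjusted p = 0.46). Each of these fits called 0 of all genes. Snhg3 shares 13.7% of its exon bases with Rcc1 on the same strand, which encodes the nucleotide exchange factor of Ran, and 71.5% with Gm17300 on the other strand. Whether the counting used the strand is not given in the sources used here, so reads of Snhg3 and Gm17300 cannot be told apart. Its own snoRNA Snora73a covers 159 exon bases of Snhg3, or 16.1%. Whether the lower count is of the spliced host or of U17 reads within it was not tested. Rcc1 had a log2 fold change of 0.020 (SE 0.11, edgeR adjusted p = 0.98), and Gm17300 one of 0.017 (SE 0.23, edgeR adjusted p = 1.00).

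Gas5 reached 77.7, 139, 147 and 155 CPM in HFD libraries 1 to 4 and 293, 239, 232 and 154 CPM in CF libraries 1 to 4. All HFD values but the highest lay under the CF range, and the groups overlapped by 1 value a side. The means were 130 ± 35.4 CPM (SD, n = 4) and 229 ± 57.3 CPM (SD, n = 4), and the log2 fold change was -0.82 (SE 0.26, edgeR adjusted p = 0.28). HFD 1 was lowest and CF 1 highest.

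Snhg12 had 5.65, 7.46, 15.1 and 23.1 CPM in HFD libraries 1 to 4 and 27.2, 20.4, 99.1 and 14.3 CPM in CF libraries 1 to 4. CF 3 stood apart at 99.1 CPM, and the other 3 CF libraries overlapped the HFD libraries. The log2 fold change was -1.65 (SE 0.69, edgeR adjusted p = 0.54), and -0.68 without CF 3.

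The other hosts varied less between libraries. Snhg1, host of Snord22 and its neighbours, had 16.4, 24.1, 26.3 and 29.8 CPM in HFD libraries 1 to 4 and 31.9, 23.1, 27.7 and 30.0 CPM in CF (log2 fold change -0.22, SE 0.19, edgeR adjusted p = 0.84). Snhg8, host of Snora24, had 7.61, 6.48, 8.74 and 7.79 CPM in HFD and 12.02, 9.73, 7.27 and 7.72 CPM in CF (-0.26, SE 0.19, edgeR adjusted p = 0.81). Snhg5, the U50 host, had 9.37, 10.3, 10.2 and 9.39 CPM in HFD and 12.6, 8.84, 10.2 and 11.5 CPM in CF (-0.13, SE 0.14, edgeR adjusted p = 0.88). The diets overlapped for each of these 3 hosts, although CF 1 gave the highest value in all of them. Single libraries moved these values: Snhg1 had -0.076 without HFD 1 and -0.38 without HFD 4, Snhg8 -0.11 without CF 1, and Snhg5 -0.052 without CF 1 and -0.22 without CF 2. Snhg6, host of Snord87, had 5.07, 5.03, 5.88 and 5.78 CPM in HFD and 5.61, 4.93, 5.04 and 5.56 CPM in CF (0.042, SE 0.14, edgeR adjusted p = 0.98). Zfas1, antisense at the start of Znfx1 and host of Snord12, had 11.6, 9.78, 13.1 and 13.98 CPM in HFD and 12.3, 11.5, 11.9 and 12.6 CPM in CF (0.0094, SE 0.13, edgeR adjusted p = 1.00). The diets overlapped for both, and the sign of both turned under some alternative settings. Opposite-strand neighbours were Mcmdc2 at Snhg6 (0.32, SE 0.36), Znfx1 at Zfas1 (-0.011, SE 0.26) and Zbtb37 at Gas5 (0.0040, SE 0.31), with edgeR adjusted p of 0.90, 1.00 and 1.00.

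**Figure D1:**
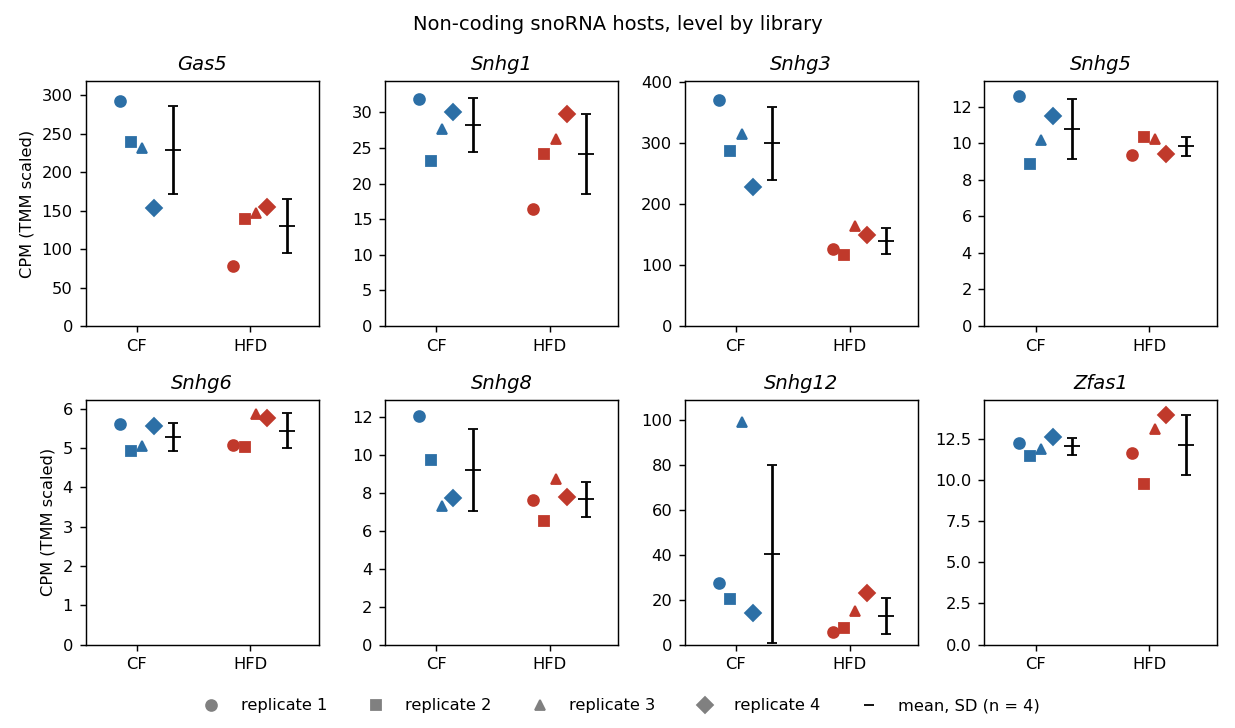
Level of each host (y axis, CPM scaled by TMM, from 0) in the 4 CF and 4 HFD libraries; symbols give the replicate number and bars the mean and SD. The groups are apart for Snhg3 alone, and 1 CF library of Snhg12 lies at 99.1 CPM.

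Over the 8 members, 6 log2 fold changes were below 0 and 2 above, with a median of -0.24, beside a median of 0.055 over all genes tested and 0.070 over protein-coding genes. An unadjusted p below 0.05 was reached by 3 members, all lower in HFD, and 5.34% of all genes met that limit in that direction. All HFD libraries lay below all CF libraries for 1 member, and for 3.58% of all genes. With library size alone, which moves the median of all genes from 0.055 to 0.25, the members' median was -0.033. It was -0.13 without CF 1, ran from -0.34 to -0.13 over all libraries left out in turn, and was -0.067 without both HFD 1 and CF 1.

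The point estimates of the snoRNAs inside these hosts lay below 0. Each of the 28 tested had a negative log2 fold change and an unadjusted p below 0.05, from -2.34 (Gm22680, in Snhg1) to -0.86 (Snora61, in Snhg12), with a median of -1.37. Other snoRNAs were alike: 85.6% of the 278 snoRNA genes outside the members passed that limit in that direction, 276 of them were lower, and their median was also -1.37. In a fit without the filter on low counts, 29 of the 30 in the table were lower. At an adjusted p, 1 of 28 was called (Snora73b), against 5.76% of the other snoRNA genes. DESeq2 called 23 of the 29 hosted snoRNAs it tested, and 498 lower and 71 higher of 15916 genes in all. Library size alone called 0 of them, with 98 lower and 10 higher over all genes, and a linear model for each gene called 0 of all genes. In 19 of the 28 the groups did not overlap, as in 172 of the 278 others. Library HFD 1 was the lowest of 8 for 24 of the 28 and CF 1 the highest for 27, and without both of these libraries the median was -0.94 with 28 of 28 still lower, an alternative chosen after seeing the data.

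Snora73b, the more counted U17 copy in Snhg3, had 232, 192, 302 and 274 CPM in HFD libraries 1 to 4 and 601, 541, 559 and 435 CPM in CF. Its groups were well apart, at a log2 fold change of -1.09 (SE 0.17, edgeR adjusted p = 0.043). Like that of Snhg3, its call was absent without HFD 2, 3 or 4 or CF 1, 2 or 3. Its near copy Snora73a had -1.06 (SE 0.21, edgeR adjusted p = 0.080), with 67.7 to 108 CPM in HFD and 137 to 242 CPM in CF. Of Snora73a, 159 bases lay in annotated exons of Snhg3, and 0 of Snora73b.

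Gas5 carried Snord80, a guide of ribose methylation in rRNA, at 155, 318, 310 and 379 CPM in HFD and 1040, 868, 700 and 431 CPM in CF. No HFD library reached the lowest CF library. The log2 fold change was -1.39 (SE 0.33, edgeR adjusted p = 0.14), while Gm22357 had -1.001 (SE 0.25, edgeR adjusted p = 0.16) and Gm22489, the lowest p in Gas5, -1.62 (SE 0.34, edgeR adjusted p = 0.097). Among the 9 tested snoRNAs of Gas5 the values ran from -1.62 to -0.97 with a median of -1.25, and 6 had groups that did not overlap. Each of the 9 point estimates was below that of the host.

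**Figure D2:**
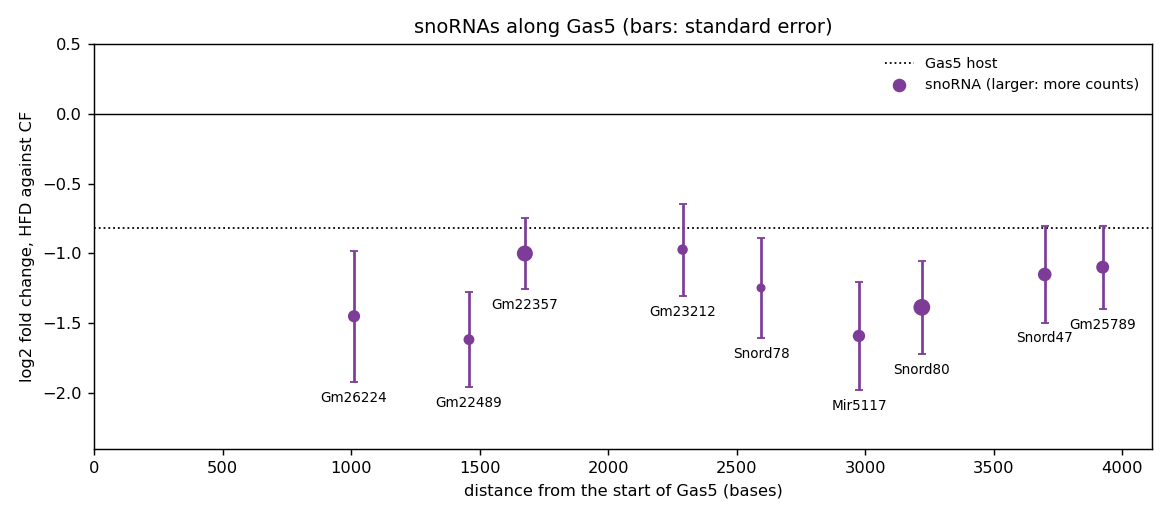
Log2 fold change of HFD against CF (y axis) of the 9 tested snoRNAs by distance from the annotated start of Gas5 in bases (x axis); bars are standard errors, larger dots have more counts, and the dotted line is the host at -0.82. All 9 dots lie between -1.62 and -0.97, under the host.

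In Snhg1, Snord22 had 64.0, 103, 175 and 179 CPM in HFD and 483, 348, 353 and 232 CPM in CF (log2 fold change -1.44, SE 0.35, edgeR adjusted p = 0.15). Its HFD values all lay below its CF values. Gm24452 in the same host had -1.47 (SE 0.53, edgeR adjusted p = 0.41), and the 7 tested snoRNAs of Snhg1 a median of -1.46. Gm22680, with as few as 4 counts in HFD 1, was chosen after its values were seen.

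In Zfas1, whose own log2 fold change was 0.0094, Gm23201 had 92.2, 236, 248 and 291 CPM in HFD and 868, 641, 583 and 368 CPM in CF (-1.50, SE 0.37, edgeR adjusted p = 0.15). The groups were apart, as for Snord12 (-1.36, SE 0.40, edgeR adjusted p = 0.24) and Gm25878 (-1.56, SE 0.37, edgeR adjusted p = 0.14). Snora24, a guide of pseudouridylation in Snhg8, had 45.3, 75.1, 99.9 and 112 CPM in HFD and 349, 248, 239 and 140 CPM in CF (-1.55, SE 0.34, edgeR adjusted p = 0.11). Snord87 in Snhg6 had 14.6, 35.4, 38.02 and 44.5 CPM in HFD and 106, 67.5, 70.3 and 46.1 CPM in CF (-1.13, SE 0.36, edgeR adjusted p = 0.30). For both, the highest HFD library stayed below the lowest CF library.

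The snoRNAs of Snhg5 and Snhg12 overlapped more between the diets. Snord50b had 22.2, 48.2, 53.1 and 57.4 CPM in HFD and 119, 87.2, 86.2 and 53.9 CPM in CF (-0.93, SE 0.32, edgeR adjusted p = 0.37), and Snord50a had -0.89 (SE 0.37, edgeR adjusted p = 0.53). In Snhg12, Snora16a had 23.3, 36.4, 52.2 and 68.0 CPM in HFD and 176, 119, 117 and 81.4 CPM in CF (-1.45, SE 0.35, edgeR adjusted p = 0.14) and was apart, while Snora61 (-0.86, SE 0.24, edgeR adjusted p = 0.20) overlapped. In CF 3, where the Snhg12 host peaked, Snora16a was not raised above CF 1 or CF 2. Snora61 and Snora44 had 109 and 42.3 CPM in CF 3. They lay between CF 1 (158 and 85.0 CPM) and CF 2 (99.7 and 35.2 CPM). The untested pair, Gm25855 in Snhg1 and Snord99 in Snhg12, had 1 to 124 and 2 to 69 counts.

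**Figure D3:**
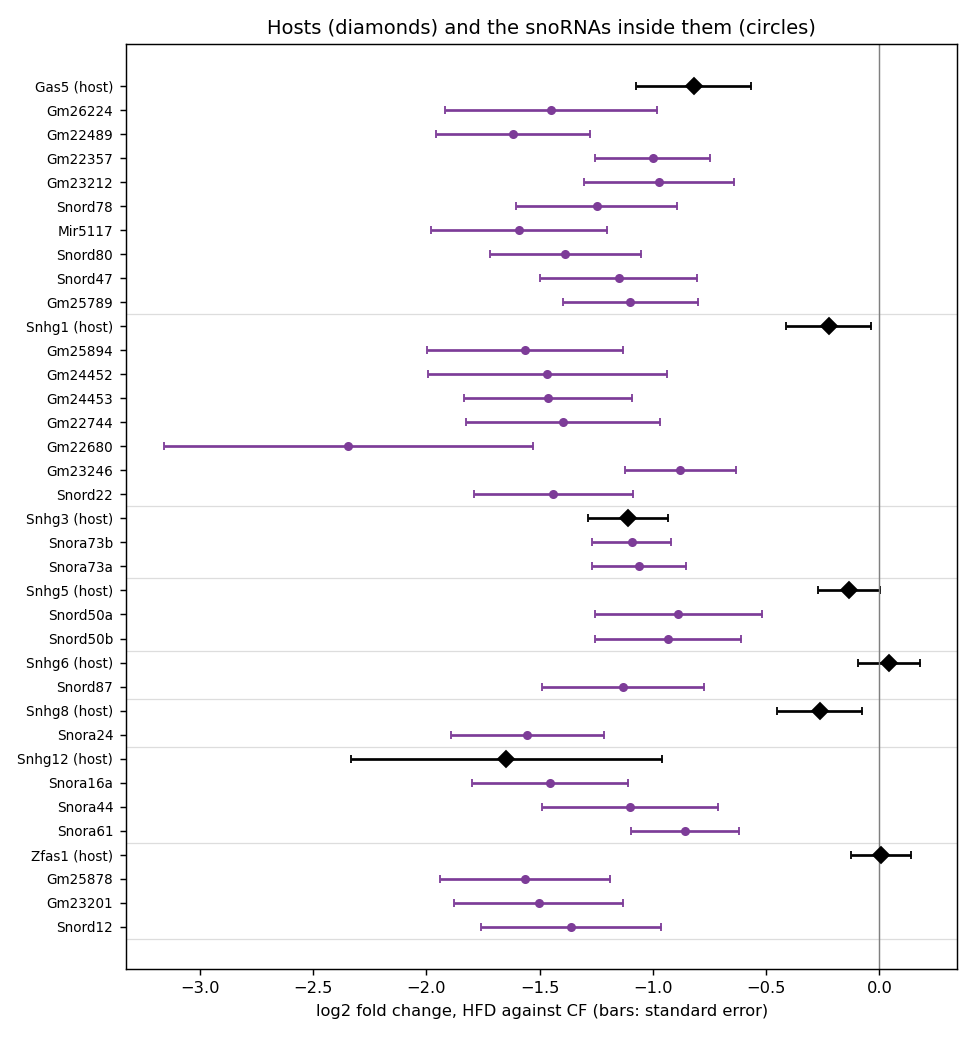
Log2 fold change of HFD against CF (x axis) with its standard error for the 8 hosts (diamonds) and the 28 tested snoRNAs under each (circles). All circles lie left of 0, whereas the diamonds of Snhg5, Snhg6 and Zfas1 lie at -0.13, 0.042 and 0.0094.

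The difference between host and snoRNA was tested directly by the number of snoRNA counts per host count in each library, which needs no scaling between libraries. Both parts come from the same library, so the ratio shows unequal change and not which part changed. A host count can also hold reads of its snoRNAs, which take 0% of exon bases at Snhg6 and 20.9% at Snhg1. At Snhg3 and Gas5 these shares are 16.1% and 17.8%. Shared reads would make a difference in the ratio smaller, and their number was not tested. For Zfas1 the ratio was 13.3, 42.5, 35.6 and 37.3 in HFD libraries 1 to 4 and 117, 96.8, 89.9 and 50.9 in CF libraries 1 to 4. The HFD libraries lay wholly below the CF libraries, at a difference of -1.53 on the log2 scale (p = 0.029 in an exact permutation test, 2-sided, and 0.043 after adjustment over 177 hosts). The value 0.029 is the smallest that 4 against 4 libraries can give.

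Snhg8 (5.95, 11.6, 11.4 and 14.4 against 29.0, 25.4, 32.8 and 18.2), Snhg1 (5.81, 7.67, 10.2 and 11.05 against 26.2, 26.6, 21.4 and 12.5) and Snhg6 (2.87, 7.01, 6.46 and 7.70 against 18.9, 13.6, 13.9 and 8.27) were apart in the same way. Their log2 differences were -1.32, -1.30 and -1.22 (exact permutation test, p = 0.029 and adjusted p = 0.043 for each). HFD 1 had the lowest ratio of all 8 libraries for these 3 hosts and Zfas1, and without it the differences were -1.06, -1.12 and -0.90, and -1.15 for Zfas1. Without both HFD 1 and CF 1 the Snhg6 difference was -0.72 and no longer called (limma, adjusted p = 0.053). Gas5 gave 4.25, 4.62, 4.24 and 4.51 in HFD and 6.28, 6.31, 5.72 and 5.14 in CF, a smaller log2 difference of -0.41 with little spread within a diet (exact permutation test, p = 0.029, adjusted p = 0.043). The Gas5 call was absent when limma was used on the log2 ratios (adjusted p = 0.15, 95% interval -0.97 to 0.15).

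For Snhg3 the ratio differed between diets by less than its spread, with 2.45, 2.24, 2.51 and 2.43 in HFD and 2.28, 2.42, 2.37 and 2.52 in CF. The log2 difference was 0.0064 (exact permutation test, p = 0.89), and the limma 95% interval of -0.54 to 0.55 corresponds to a ratio 0.69 to 1.47 times that of CF. The Snora73 pair also lies inside Rcc1, so that its hosts share these counts. Against Rcc1 the log2 difference was -1.12, with HFD wholly below CF (exact permutation test, p = 0.029, adjusted p = 0.043). Snhg5 ran from 3.62 to 10.4 in HFD and from 7.69 to 16.4 in CF (-0.85, exact permutation test, p = 0.11, adjusted p = 0.13). Its difference was -0.53 without HFD 1, and limma called it without HFD 4 (-1.03, adjusted p = 0.049) or CF 4 (-1.09, adjusted p = 0.028). Snhg12 ran from 6.69 to 19.5 in HFD and from 2.71 in CF 3 to 15.4 in CF (0.34, exact permutation test, p = 0.71, adjusted p = 0.73), and its sign turned to -0.23 without CF 3.

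**Figure D4:**
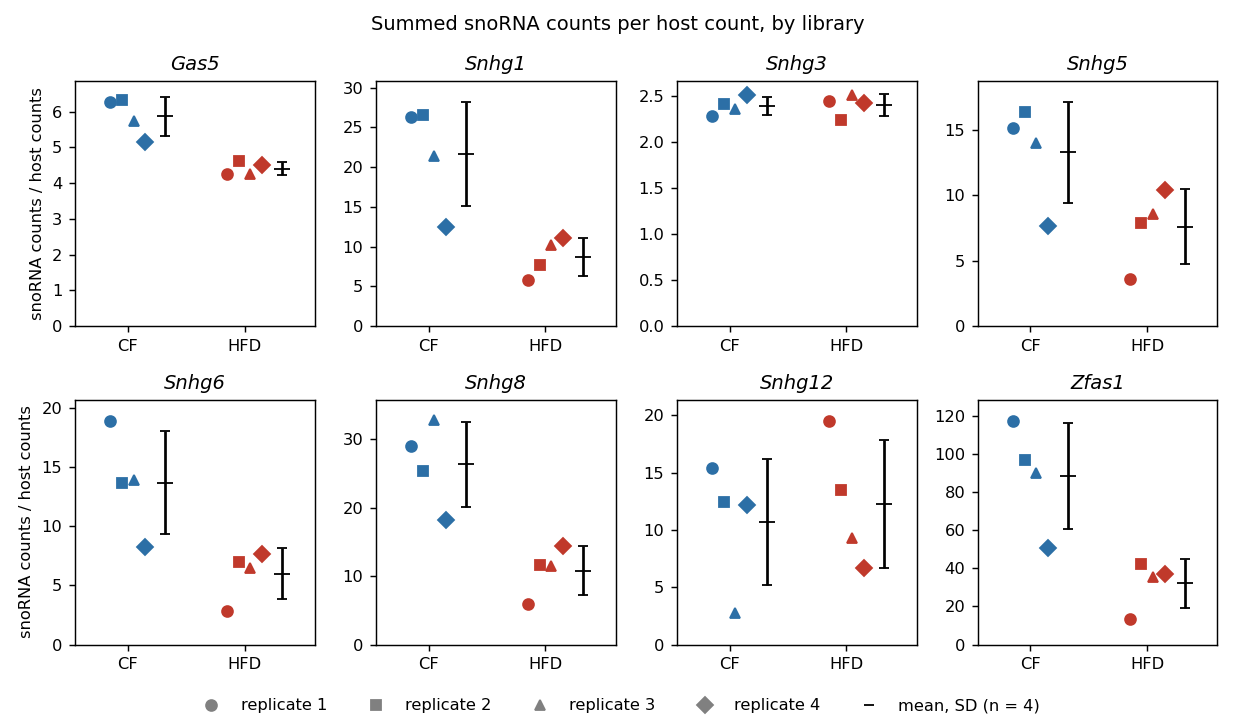
Summed snoRNA counts per host count (y axis, from 0) in each CF and HFD library, with mean and SD (n = 4) as bars and symbols for replicate numbers. The groups are apart for Gas5, Snhg1, Snhg6, Snhg8 and Zfas1, and overlap for Snhg3, Snhg5 and Snhg12.

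Thus 6 of the 8 members had a lower ratio in HFD and 5 of the 8 were called lower, where 66.7% of all 177 same-strand hosts, protein-coding ones included, were called lower and 0 higher. Protein-coding hosts made up 104 of these 118 calls out of 150 tested, and other non-coding hosts 9 of 19. The median log2 difference was -1.04 in the members, -1.13 in other non-coding hosts and -1.39 in protein-coding hosts.

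**Figure D5:**
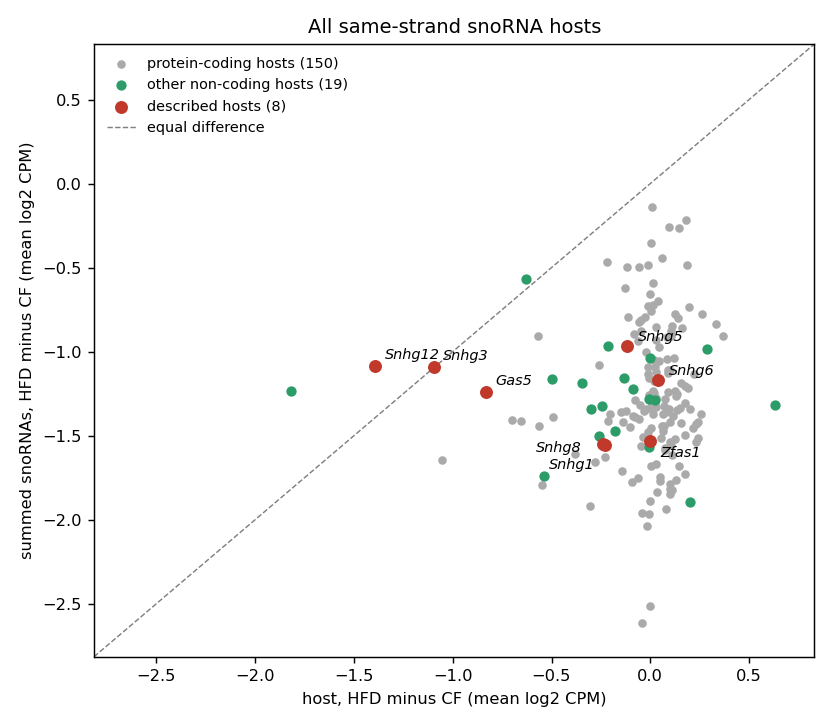
Difference in mean log2 CPM between HFD and CF for each host (x axis) and for its summed snoRNAs (y axis); the dashed line marks equal differences. Most of the 177 hosts lie below that line near 0 on the x axis, while Snhg3 lies on it and Snhg12 just above.

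Of the pathway genes listed, edgeR called 0 and DESeq2, as an alternative, 3 over all lists, and the medians of the lists of proteins ran from 0.039 to 0.091, beside 0.055 over all genes. Among all 15837 genes, 9447 were higher and 6390 lower, and 1355 had an unadjusted p below 0.05 in edgeR in either direction. Of 22 factors of NMD, 14 were higher and 8 lower (median 0.054), with 0 at an unadjusted p below 0.05. The lowest p values belonged to the helicase Dhx34 (0.26, SE 0.15, edgeR adjusted p = 0.75) and the release factor Etf1 (0.16, SE 0.092, edgeR adjusted p = 0.76). Of 20 translation factors and others whose mRNAs start with a TOP motif, 15 were higher and 5 lower (median 0.039), again with 0 at that limit. Eif3h, a subunit of an initiation factor, had 0.19 (SE 0.16, edgeR adjusted p = 0.84) and Naca, of the nascent chain complex, 0.17 (SE 0.14, edgeR adjusted p = 0.84).

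Of 8 core snoRNA-binding proteins 6 were higher and 2 lower (median 0.091), with the lowest p for Nop56 of the C/D box particle (-0.14, SE 0.12, edgeR adjusted p = 0.85) and Nhp2 of the H/ACA particle (0.11, SE 0.10, edgeR adjusted p = 0.86). Of 12 assembly factors 7 were higher and 5 lower (median 0.079). Shq1, a chaperone of H/ACA particle assembly, was the 1 gene of these with an unadjusted p below 0.05, at 0.53 (SE 0.20, edgeR adjusted p = 0.44), and the ATPase Ruvbl2 had 0.26 (SE 0.14, edgeR adjusted p = 0.74).

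Of 12 further non-coding hosts listed, 7 were tested, 2 higher and 5 lower (median -0.30), with 1 at an unadjusted p below 0.05. Snhg9 had -0.54 (SE 0.24, edgeR adjusted p = 0.58) and Snhg17 -0.87 (SE 0.43, edgeR adjusted p = 0.68). Snhg17 had 21.4 CPM in CF 3 against 4.48 to 10.2 CPM in the other CF libraries, and -0.31 without CF 3. Of the 150 protein-coding hosts, 98 were higher and 52 lower (median 0.046), with 8 at that limit and 0 called, where 1355 of all 15837 genes met that limit. Tbrg4, a regulator of mitochondrial RNA, had -1.08 (SE 0.22, edgeR adjusted p = 0.088), and Eif4g2, an initiation factor of translation, -0.70 (SE 0.20, edgeR adjusted p = 0.20). Both had HFD libraries wholly below CF libraries.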

How the data were processed

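The authors sorted CDPs, amplified total RNA with the NuGen Ovation Solo kit, which depletes rRNA, aligned read pairs with HISAT2 and counted uniquely mapped ones with StringTie. They deposited a table of raw counts per gene, without normalization, which was used here. The submitters' processing notes name GRCm38, FastQC and cutadapt; the GENCODE release is not given in the sources used here, and vM21 was used for names and positions (16067 genes matched, 52 not). Column labels were matched by their sample number.

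Counts were filtered by filterByExpr (282 genes left out), scaled by TMM and tested with edgeR 4.0.16 (robust quasi-likelihood fit, diet only, Benjamini-Hochberg over 15837 genes) in R 4.3.3, in place of the study's Ballgown. A linear model for each gene, limma 3.58.1 and DESeq2 1.42.0 were alternatives. For 177 hosts, log2((snoRNA counts + 0.5) / (host counts + 0.5)) was compared by exact permutation over 70 divisions. Named were all members, the 2 most counted and the lowest-p snoRNA of each, the 2 lowest-p genes of each list, overlapping genes and the 5 protein-coding genes most like the members. Members and lists were chosen with earlier results of these data known. The tests were tried on simulated data.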

Additional observations from a re-analysis of the deposited data

Results flagged for a closer look

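The level of Snhg12 in CF 3 was 99.1 CPM, where the other CF libraries had 14.3 to 27.2 CPM. This library stood farther from the rest of its group than the limit of Dixon's test at 95%. Of 64 groups examined in this way this was 1, and chance alone gives about 1 in 20. Its raw count was 3148, against 549 to 1054 in the other CF libraries.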

How the results depend on the processing

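The call of 1 member became 0 with a linear model for each gene and 0 with the replicate number as a block, each of which called 0 of all 15837 genes and left Snhg3 at -1.09 and -1.10, and ranged from 0 to 1 over libraries left out in turn. Of the hosted snoRNAs, 1 was called; library size alone, the linear model and the replicate block gave 0, DESeq2 gave 23, and leaving out libraries gave 0 to 3. Listed pathway genes called went from 0 to 3 with DESeq2 and from 0 to 1 over libraries left out. Ratio calls were 5 in the exact test and 4 in limma on the same libraries, where all 177 hosts gave 118 and 136. In limma they were 2 with the replicate block (Snhg8 and Zfas1, with Snhg1 at an adjusted p of 0.050 and Snhg6 at 0.067), 3 without HFD 1 and CF 1 together (Snhg1, Snhg8 and Zfas1), and 4 to 5 when a library was left out, where all hosts gave 86, 103, and 118 to 144. The cause was not tested. Deviations of same-numbered libraries from their group means had correlations of -0.44 to -0.078, and no HFD library was most like the CF library of its number. With 4 libraries per diet such correlations cannot show whether same-numbered libraries were sorted or prepared together, which was not tested.

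Snhg3 had log2 fold changes of -1.22 to -0.88 over 18 alternatives and was called in 10 (adjusted p 7.0e-07 to 0.46, the highest with the replicate block). Gas5 ran from -0.97 to -0.50 and was called in 0. Values near 0 changed sign: Snhg5 0.060 and Nop56 0.037 with library size alone; Snhg6 -0.028 at the lowest and 0.077 at the highest over libraries left out. Library size alone also gave 0.20 for Zfas1, 0.23 for Snhg6, -0.026 for Snhg1 and -0.041 for Snhg8. Zfas1 gave -0.0030 with RLE factors, -0.030 with TMM from protein-coding genes, -0.0016 with DESeq2, -0.0019 with the linear model, -0.0024 with the block, and -0.11 to 0.10 over libraries left out; Eif3h gave -0.0065 to 0.29 there. The Snhg3 ratio gave -0.017 to 0.041 over libraries left out and -0.026 without HFD 1 and CF 1 together, and the Snhg12 ratio -0.23 to 0.61. Among listed genes, leaving out 1 library gave 0.090 to 0.19 for Etf1, 0.031 to 0.24 for Naca, 0.039 to 0.16 for Nhp2, 0.15 to 0.38 for Ruvbl2 and -0.27 to -0.088 for Nop56. The lowest count of a member in a library was 155 (Snhg6).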

Other observations

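Over the 8 libraries, the protein-coding genes whose log2 CPM followed the mean of the members' standardised levels most closely were Hepacam2 (r = 0.985), Ppt1 (0.984), Amigo1 (0.983), Gbp5 (0.979) and Dhx33 (0.948). These correlations are descriptions of 8 libraries that share depth and scaling, and were picked as the highest of all protein-coding genes. Hepacam2 was lowest in HFD 1 at 0.225 CPM and highest in CF 1 at 4.96 CPM. Dhx33, an RNA helicase, varied over a narrow span of 13.6 to 18.4 CPM. The correlation of each member with the mean of the others ran from 0.42 for Snhg6 to 0.79 for Snhg1.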
